A study of Mus musculus with 6 samples.

Results

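The dual-specificity MAP kinase phosphatases considered here are the 9 genes Dusp1, Dusp2, Dusp3, Dusp4, Dusp5, Dusp6, Dusp10, Dusp14 and Dusp16. They were picked by gene name from the 54532 genes of one RNA-seq table, with their values in these libraries already known, so their levels and fold changes are given as a description. Poly-A RNA was sequenced in 6 libraries, 2 per group, from thioglycolate-elicited peritoneal macrophages of wild-type male C57BL/6J mice aged 6 to 8 weeks. Control cells were untreated. Model cells received 0.5 μg/mL LPS, the bacterial lipopolysaccharide sensed by a Toll-like receptor, over 5.5 h as the priming signal of the NLRP3 inflammasome, and then 2 mM ATP over 0.5 h as the activating signal. MUS cells were given LPS and ATP in the same way, plus 50 μM muscone, a macrocyclic ketone from musk, added 0.5 h before ATP. Muscone without LPS and ATP was not analysed here, and the cells are thioglycolate-elicited rather than resident macrophages. Levels are given as FPKM, fragment counts scaled to gene length and library size, so that different genes can be compared.

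The MAP kinases ERK, JNK and p38 are switched on when a kinase above them phosphorylates a threonine and a tyrosine in their activation loop. Dual-specificity phosphatases remove both phosphates and so switch the kinases off. In macrophages stimulated through Toll-like receptors, several of these phosphatases are themselves transcribed in response to MAP kinase and NF-κB signalling, which makes them feedback brakes on cytokine production. Dusp1, Dusp2, Dusp4 and Dusp5 encode inducible enzymes of the nucleus, Dusp6 encodes a cytoplasmic phosphatase of ERK, Dusp10 and Dusp16 encode phosphatases that prefer JNK and p38, and Dusp3 and Dusp14 encode small atypical enzymes that lack the kinase-binding domain of the others.

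Promoters of 8 of the 9 genes were matched in the RefSeq windows of build GRCm38.p6, which run from 250 bases before to 50 bases after each annotated start, and Dusp4 was not matched. The RefSeq starts of Dusp10, Dusp3 and Dusp14 lay 21079, 2222 and 904 bases inside the deposited genes, so their windows do not cover the outer ends of those genes. A set of 5 motifs was searched on both strands of 32851 windows. The cAMP response element TGACGTCA was present in 1.79% of all windows and in 1 of the 8 matched genes, Dusp1, where it lay 143 to 136 bases before the start. The CArG box, the site of serum response factor, was present in 1.63% of all windows and in 1 of the 8, Dusp5, with 1 copy at 82 to 73 bases and another at 72 to 63 bases before the start. The AP-1 site TGAGTCA (5.2% of all windows), the TATA box TATAAA (13.6%) and the kappa B site (8.46%) were in 0 of the 8, which says only that these letters are not in these windows, and no match overlapped another. The 250 bases before the start are shown 5′ to 3′ on the strand of the gene for Dusp1 (chr17:26508473-26508722, minus strand) and Dusp5 (chr19:53528895-53529144, plus strand), which hold the motifs (capitals) and whose RefSeq starts lie 47 and 36 bases inside the deposited gene, and for Dusp2 (chr2:127335909-127336158, plus strand), the member with the largest fold difference between Model and MUS, with no motif match.
Dusp1: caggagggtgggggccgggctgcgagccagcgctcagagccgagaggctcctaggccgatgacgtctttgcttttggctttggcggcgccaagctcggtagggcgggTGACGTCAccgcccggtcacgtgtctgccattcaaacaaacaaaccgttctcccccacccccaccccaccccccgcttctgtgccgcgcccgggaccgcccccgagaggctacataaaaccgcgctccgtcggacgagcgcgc
Dusp5: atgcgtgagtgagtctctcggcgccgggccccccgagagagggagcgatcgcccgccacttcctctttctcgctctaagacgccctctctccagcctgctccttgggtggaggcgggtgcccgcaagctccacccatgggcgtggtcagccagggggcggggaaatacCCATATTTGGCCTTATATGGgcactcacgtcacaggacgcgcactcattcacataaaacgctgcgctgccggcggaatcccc
Dusp2: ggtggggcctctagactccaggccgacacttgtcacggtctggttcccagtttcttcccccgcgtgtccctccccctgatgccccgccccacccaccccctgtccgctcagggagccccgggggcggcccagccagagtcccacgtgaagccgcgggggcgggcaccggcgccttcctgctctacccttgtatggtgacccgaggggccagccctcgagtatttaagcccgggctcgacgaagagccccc

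The windows of all 8 matched genes were richer in G and C (57.3% to 71.3%) than the median window (52.67%). Those of the 3 genes shown held 67%, 66.7% and 70.7%.

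The libraries held between 15526321 and 17135442 fragments on genes, recovered from the table as whole numbers. Model replicate 1 stood apart, with at least 1 fragment on 24906 genes against 17406 to 19200 in the other 5 libraries. The scale of the deposited FPKM differed between groups, since the fragments were divided by 1.45 and 1.34 times the fragment total in Control and by 0.909 to 0.998 times the total in the other 4 libraries. All 6 macrophage markers (Adgre1, Cd68, Csf1r, Itgam, Lyz2 and Cd14) averaged 1 FPKM or more, with a summed level of 9396 to 14106 FPKM, most of it Lyz2. The markers moved apart within that sum, since the mean of Csf1r was 2.61 times and that of Cd68 1.63 times as high in Control as in Model, while Cd14, a receptor subunit for LPS, was 5.45 times as high in Model as in Control. Markers of T and NK cells (0.064 to 1.22 FPKM in sum), B cells (0.559 to 1.59), mast cells (0.234 to 1.17), dendritic cells (0.372 to 1.82) and mesothelial cells (0.348 to 0.726) stayed low, and the 3 eosinophil markers were listed at 0. The fibroblast markers summed to 11.4 to 22.4 FPKM. The neutrophil markers summed to 13.7 and 30.9 FPKM in Control libraries, 112 and 57.7 in Model libraries and 64.6 and 50.8 in MUS libraries, nearly all of it S100a8, which macrophages can also express, while Ly6g, S100a9 and Retnlg were listed at 0. Their part in the results was not tested. In bulk RNA, fewer cells of a type and less RNA per cell cannot be told apart.

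**Figure D1:**
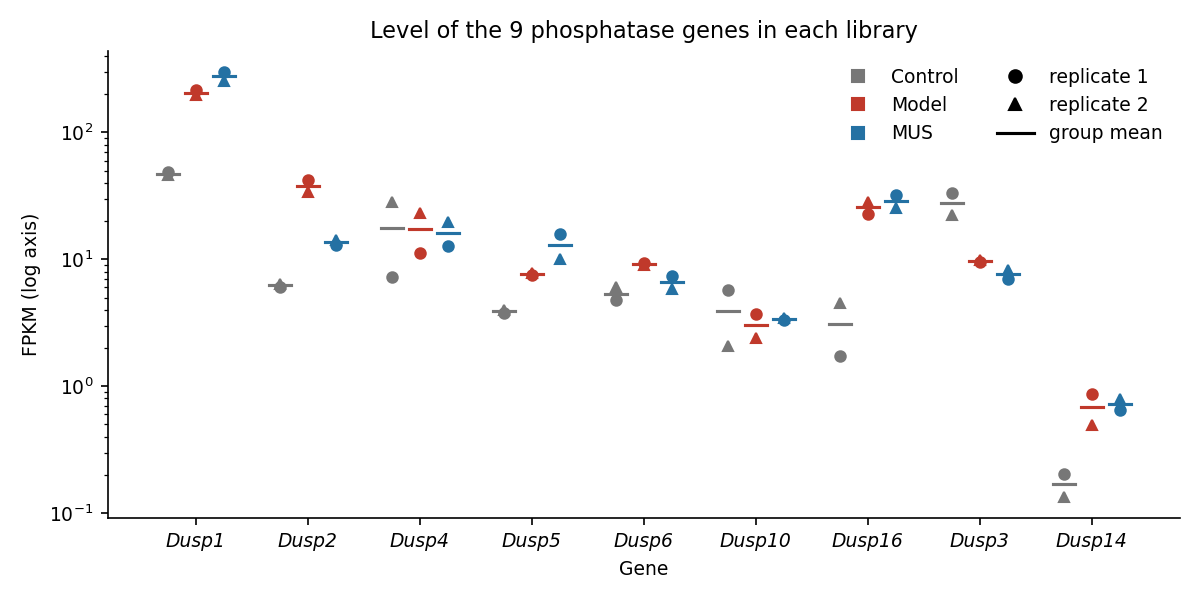
FPKM of the 9 phosphatase genes on a log axis, with 1 point per library (2 per group) and a line at each group mean. Dusp1 was the highest and Dusp14 the lowest in every library, and Dusp2 is the gene in which MUS sits between Control and Model, apart from both.

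Dusp1 (ENSMUSG00000024190, chromosome 17, 26505590 to 26508519, minus strand; all gene positions are on GRCm38) encodes MKP-1, a feedback phosphatase of p38 and JNK in macrophages, and was the most abundant of the 9. Its level was 48.9 and 45.8 FPKM in Control libraries, 214 and 196 in Model libraries, and 299.5 and 255 in MUS libraries, from 2827 to 12208 fragments. The libraries fell into 3 tiers without overlap, with Control lowest and MUS highest. How many of all genes form such tiers was not counted, here or for Dusp5 and Dusp3 below. The mean rose 4.33-fold from 47.4 ± 2.21 (SD, n = 2) in Control to 205 ± 12.9 (SD, n = 2) in Model, a log2 fold change of 2.09 ± 0.30 (SE, on the log2(FPKM + 1) scale used throughout). Dusp1 was thus a differentially expressed gene (DEG), defined by an adjusted p of at most 0.05 (limma, Benjamini-Hochberg over all 9794 genes that averaged 1 FPKM or more) and an absolute log2 fold change over 1. The MUS mean of 277 ± 31.3 (SD, n = 2) was 1.35 times that of Model (log2 fold change 0.43 ± 0.30, not a DEG).

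Dusp2 (ENSMUSG00000027368, chromosome 2, 127336159 to 127338376, plus strand) encodes PAC-1, a nuclear phosphatase of activated immune cells. It was at 6.05 and 6.39 FPKM in Control libraries, 41.9 and 34.1 in Model libraries, and 12.9 and 14.3 in MUS libraries, from 277 to 1185 fragments. Both MUS libraries lay above both Control libraries and below both Model libraries, an order found in 371 (3.79%) of the 9794 genes and in 1 of the 8 members tested. The order needs Model above Control, and of the 930 upregulated DEGs of Model vs. Control 203 (21.8%) had it. Dusp2 rose 6.11-fold in Model vs. Control, from 6.22 ± 0.244 to 38 ± 5.51 (SD, n = 2 each), with a log2 fold change of 2.43 ± 0.24, and was a DEG. The Model mean was 2.80 times the MUS mean of 13.6 ± 0.952 (SD, n = 2), and the log2 fold change of MUS against Model, -1.41 ± 0.24, was the most negative of the 8 members tested, although Dusp2 was not a DEG there. On the deposited scale, which differs between Control and MUS, the MUS mean was still 2.18 times that of Control.

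Dusp5 (ENSMUSG00000034765, chromosome 19, 53529109 to 53542431, plus strand), a nuclear phosphatase of ERK, was at 3.77 and 3.99 FPKM in Control libraries, 7.48 and 7.78 in Model libraries, and 15.8 and 10.1 in MUS libraries, from 213 to 592 fragments. As for Dusp1, the 3 groups did not overlap and MUS was highest, but the MUS libraries were further apart than those of the other groups. The means were 3.88 ± 0.161, 7.63 ± 0.212 and 12.9 ± 4.09 (SD, n = 2 each), so that on the deposited scale MUS was 1.70 times Model and 3.34 times Control. Dusp5 had a log2 fold change of 0.82 ± 0.26 for Model vs. Control and one of 0.66 ± 0.26 for MUS vs. Model, and was a DEG in neither. With the recovered fragments scaled to equal totals, its Model vs. Control value was 0.37.

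Dusp4 (ENSMUSG00000031530, chromosome 8, 34807297 to 34819894, plus strand), the nuclear phosphatase MKP-2, showed no separation of the groups. It was at 7.31 and 28.2 FPKM in Control libraries, 11.2 and 23.2 in Model libraries, and 12.7 and 19.7 in MUS libraries, from 433 to 1768 fragments. The replicates of a group differed more than the groups did, and replicate 2 was the higher in each. Replicate 2 exceeded replicate 1 3.86-fold in Control, 2.07-fold in Model and 1.56-fold in MUS, and 13.2% of the 9794 genes likewise had the higher value in replicate 2 of all 3 groups. The log2 fold changes were 0.14 ± 0.61 in Model vs. Control and -0.03 ± 0.61 in MUS vs. Model, with the largest SE of the 8 members, and the sign of each changed with the scaling or with the library left out.

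Dusp6 (ENSMUSG00000019960, chromosome 10, 99263231 to 99267489, plus strand), the cytoplasmic ERK phosphatase MKP-3, was at 4.75 and 6.0 FPKM in Control libraries, 9.30 and 9.05 in Model libraries, and 7.33 and 5.82 in MUS libraries, from 296 to 439 fragments. On the deposited scale, Model was above both other groups, and the MUS libraries overlapped those of Control, 1 of them lying below Control replicate 2. That scale differs between Control and MUS, and the order was not redone with fragments scaled to equal totals. The means were 5.37 ± 0.886, 9.17 ± 0.178 and 6.57 ± 1.07 (SD, n = 2 each), with log2 fold changes of 0.68 ± 0.23 in Model vs. Control and -0.43 ± 0.23 in MUS vs. Model, neither of which made Dusp6 a DEG. With the recovered fragments scaled to equal totals, the Model vs. Control value of Dusp6 was 0.21.

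The JNK and p38 phosphatases Dusp16 and Dusp10 differed in pattern. Dusp16 (ENSMUSG00000030203, chromosome 6, 134715468 to 134792625, minus strand), which encodes MKP-7, was at 1.73 and 4.50 FPKM in Control libraries, 22.9 and 28.4 in Model libraries, and 32.2 and 25.5 in MUS libraries, from 309 to 3797 fragments. Both stimulated groups lay far above Control and overlapped each other. Dusp16 rose 8.23-fold in Model vs. Control, from 3.11 ± 1.95 to 25.6 ± 3.91 (SD, n = 2 each), the largest ratio of the 9 genes, with a log2 fold change of 2.77 ± 0.36, and was a DEG. Its log2 fold change in MUS vs. Model was 0.16 ± 0.36, and its MUS mean was 28.9 ± 4.74 (SD, n = 2). The antisense gene Gm36328 overlaps Dusp16 over 947 bases at a mean of 1.17 FPKM, and whether strand was used in counting is not given in the sources used here.

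Dusp10 (ENSMUSG00000039384, chromosome 1, 184013302 to 184075636, plus strand), which encodes MKP-5, was at 5.71 and 2.08 FPKM in Control libraries, 3.68 and 2.42 in Model libraries, and 3.31 and 3.44 in MUS libraries, from 114 to 397 fragments. The Control libraries enclosed all 4 others, so the groups overlapped throughout. The log2 fold changes were -0.19 ± 0.37 in Model vs. Control and 0.13 ± 0.37 in MUS vs. Model, and each changed sign under some alternatives. Within a library, the ratio of Dusp16 to Dusp10 was 0.304 and 2.16 in Control libraries, 6.21 and 11.7 in Model libraries, and 9.74 and 7.41 in MUS libraries, so Dusp10 was the more abundant of the pair in 1 library, Control replicate 1. The antisense gene 1700056E22Rik overlaps Dusp10 over 1272 bases, at a mean of 0.0934 FPKM.

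**Figure D2:**
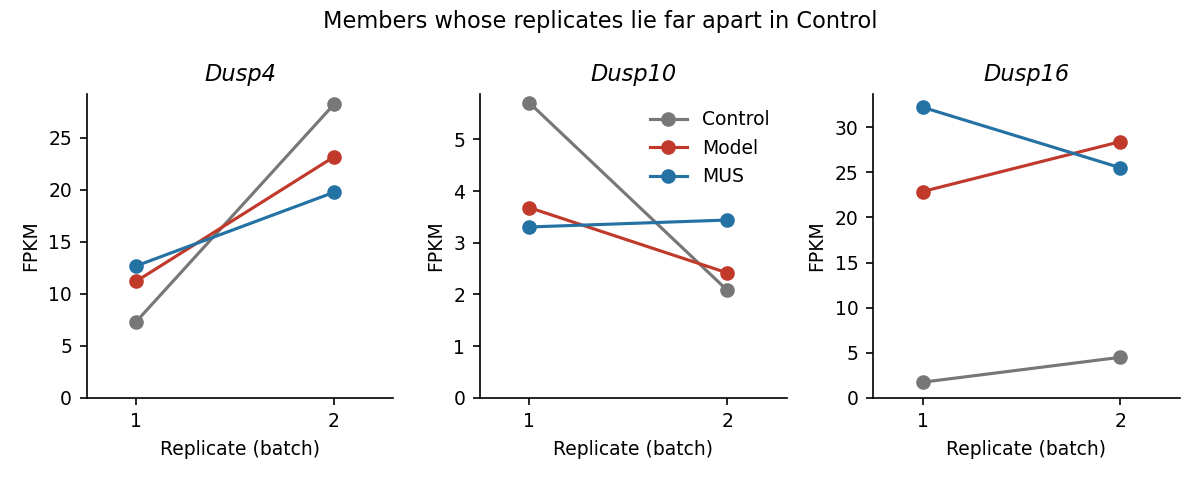
FPKM of Dusp4, Dusp10 and Dusp16, the members whose replicates lie far apart in Control, plotted by replicate number (the batch in the labels), with 1 line per group joining its 2 libraries. Dusp4 was higher in replicate 2 in all 3 groups, from 7.31 to 28.2 FPKM in Control.

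Dusp3 (ENSMUSG00000003518, chromosome 11, 101971143 to 101987013, minus strand) encodes VHR, a small atypical phosphatase of ERK and JNK, and was the member that fell. It was at 33.1 and 22.3 FPKM in Control libraries, 9.52 and 9.88 in Model libraries, and 7.04 and 8.23 in MUS libraries, from 498 to 3548 fragments. The 3 groups did not overlap, with Control highest and MUS lowest. The Control mean of 27.7 ± 7.67 was 2.86 times the Model mean of 9.70 ± 0.258 (SD, n = 2 each), and the log2 fold change of -1.40 ± 0.27 made Dusp3 a DEG. In MUS the mean was 7.63 ± 0.844 (SD, n = 2), with a log2 fold change of -0.31 ± 0.27 against Model. Dusp3 was not a DEG without Control replicate 1 (log2 fold change -1.12), without Model replicate 1 (-1.37) or without either MUS library (-1.40 in both), when the adjusted p did not pass. The antisense gene Cfap97d1 overlaps Dusp3 over 2735 bases, at a mean of 0.058 FPKM.

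Dusp14 (ENSMUSG00000018648, chromosome 11, 84048041 to 84069261, minus strand), the other small atypical member, encodes MKP-6 and was near the limit of detection. It was at 0.202 and 0.135 FPKM in Control libraries, 0.874 and 0.498 in Model libraries, and 0.646 and 0.791 in MUS libraries. Both stimulated groups were above Control and overlapped each other, but these values rest on 9 and 6, 24 and 15, and 19 and 25 fragments. Exact Poisson 95% intervals, which cover counting error only, were 2.20 to 13.1 for 6 fragments and 16.2 to 36.9 for 25. With a mean of 0.5245 FPKM over the 6 libraries, Dusp14 was the 1 member below the filter of 1 FPKM, whereas the nearest member above it, Dusp10, had a mean of 3.44. Of its 50-base stretches, 1.32% also occurred in transcripts of another gene, against 0.419% for Dusp3 and 0% for the other 7 members.

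**Figure D3:**
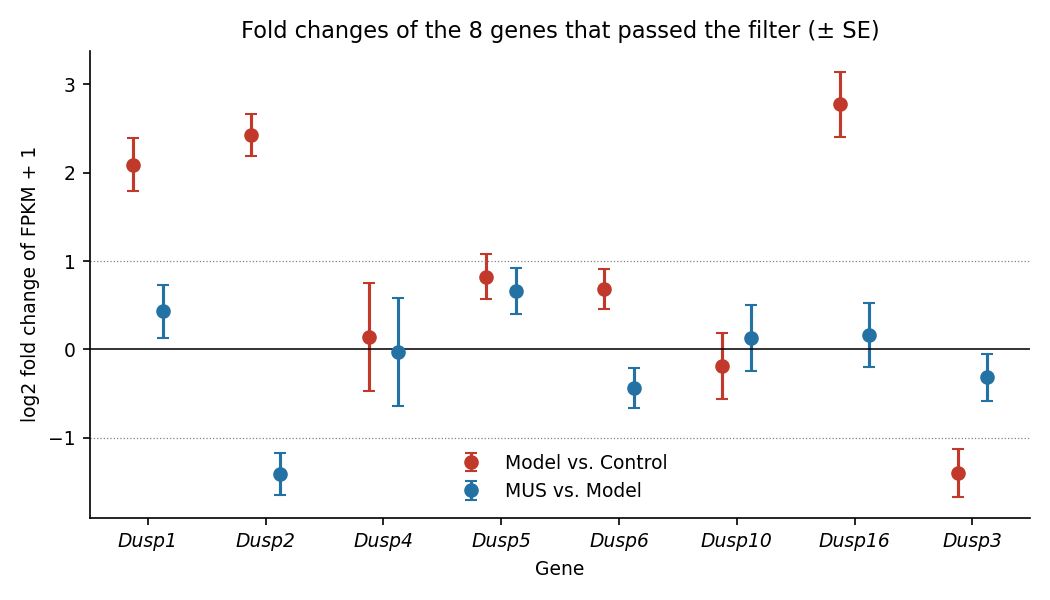
Log2 fold change of FPKM + 1 for the 8 members that passed the filter, in Model vs. Control and in MUS vs. Model, with bars of 1 SE from limma. Both comparisons share the Model libraries. Dusp16, Dusp2 and Dusp1 lie above 2 and Dusp3 below -1 in Model vs. Control, while Dusp2 lies lowest in MUS vs. Model at -1.41.

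In Model vs. Control, which asks what LPS and ATP changed, 4 of the 8 members that passed the filter were DEGs, Dusp1, Dusp2 and Dusp16 higher and Dusp3 lower. Of all 9794 genes, 15.1% were DEGs, 9.50% upregulated and 5.56% downregulated. At an unadjusted p under 0.05 there were 6 of the 8 members and 33.6% of all genes, and with limma voom on the recovered fragments 4 members and 27.9% of all genes were DEGs. The members at an unadjusted p under 0.05 were 4 of 8 both with fragments scaled to equal totals, beside 44.7% of all genes, and with voom, beside 44.9%. The members were chosen with this contrast known, and nothing is read from their share. Over all 9 genes, on the deposited scale, both Model libraries lay above both Control libraries for 6 (Dusp1, Dusp2, Dusp5, Dusp6, Dusp14 and Dusp16) and below them for 1 (Dusp3), where 32.6% and 28.5% of the 9794 genes did so. Of the 8 members that passed the filter, as those genes did, 5 lay above and 1 below. With the recovered fragments scaled to equal totals, the median log2 fold change of all genes moved from 0.04 to -0.42 and the upregulated share of DEGs from 63.1% to 28.4%. The log2 fold changes moved too, Dusp1 from 2.09 to 1.55 and Dusp2 from 2.43 to 1.94. Dusp16 went from 2.77 to 2.35 and Dusp3 from -1.40 to -1.92. Relative to the medians of all genes, Dusp1 lay at 2.05 and 1.97 and Dusp2 at 2.39 and 2.35. Likewise Dusp16 lay at 2.73 and 2.77 and Dusp3 at -1.44 and -1.51. That nearness says nothing about the members, since the scaling multiplies each library by a constant and shifts most genes alike. The same 4 members were DEGs under both scalings. Without Model replicate 1, the library that stood apart, Dusp1 (2.03), Dusp2 (2.28) and Dusp16 (2.92) were still DEGs and Dusp3 (-1.37) was not, while the values were 0.85 for Dusp5, 0.66 for Dusp6, 0.63 for Dusp4 and -0.41 for Dusp10. For Dusp4 the scaling turned the log2 fold change from 0.14 to -0.37.

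In MUS vs. Model, which asks what muscone changed in stimulated cells, no member was a DEG with limma. DEGs made up 0% of all 9794 genes here, with 0.139 as the smallest adjusted p (limma, Benjamini-Hochberg). The paper, with DESeq2 at the same thresholds, did report DEGs in this comparison, most of them downregulated. Its analysis was not repeated, so the 0% holds for limma on these FPKM values. At an unadjusted p under 0.05 there were 2 of the 8 members, 1 higher and 1 lower, and 8.42% of all genes, and limma with voom weights on the recovered fragments gave the same 0 DEGs and 2 members. Both MUS libraries lay above both Model libraries for 2 of the 9 members (Dusp1 and Dusp5) and below them for 3 (Dusp2, Dusp3 and Dusp6), where 21.2% and 21.0% of the 9794 genes did so. Leaving out a library moved these counts, with 31 DEGs among all genes without Model replicate 2 and 5 without either Control library, and with the replicate number as a block there were 4, but 0 of the DEGs were members in each case. The 2 members at an unadjusted p under 0.05 became 1 without Control replicate 1 or 2, Model replicate 1 or 2, or MUS replicate 1. Without Model replicate 1 the log2 fold changes of MUS against Model were -1.27 for Dusp2, 0.49 for Dusp1, 0.64 for Dusp5, -0.41 for Dusp6, -0.34 for Dusp3, 0.01 for Dusp16, -0.52 for Dusp4 and 0.36 for Dusp10. With 2 libraries against 2, an exact permutation test cannot give a p below 0.333. MUS vs. Control was not tested. On the deposited scale, its levels did not overlap for 6 of the 9 members, with Dusp1, Dusp2, Dusp5, Dusp14 and Dusp16 higher in MUS and Dusp3 lower, where 39.6% and 33.8% of the 9794 genes were higher and lower. Of the 8 members that passed the filter, 4 were higher and 1 lower. That scale divided Control by 1.45 and 1.34 times the fragment total and MUS by 0.932 and 0.986 times. Orders against Control were not redone with fragments scaled to equal totals. Both comparisons use the same Model libraries, and nothing in the labels says that the libraries of a group came from separate animals or cultures, so the SEs and p-values measure the spread between these samples, which may be technical.

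Summed over the 9 genes, phosphatase mRNA amounted to 112 and 119 FPKM in Control libraries, 321 and 311 in Model libraries, and 391 and 343 in MUS libraries. These sums are on the deposited scale, which divides Control by a larger multiple of its fragment total than the other groups. The sum was lowest in Control and highest in MUS, and Dusp1 supplied the greatest part of it in every library. Dusp1 made up 43.9% and 38.4% of the sum in Control libraries, 66.7% and 63.0% in Model libraries, and 76.5% and 74.4% in MUS libraries. The second place changed hands between the groups. It was held by Dusp3 in Control replicate 1 and Dusp4 in Control replicate 2, by Dusp2 in both Model libraries and by Dusp16 in both MUS libraries. Dusp3 made up 29.7% and 18.7% in Control but 2.97% and 3.18% in Model and 1.80% and 2.40% in MUS, and Dusp2 went from 5.42% and 5.35% in Control to 13.1% and 11.0% in Model and 3.30% and 4.16% in MUS. These shares do not depend on the scale of a library.

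**Figure D4:**
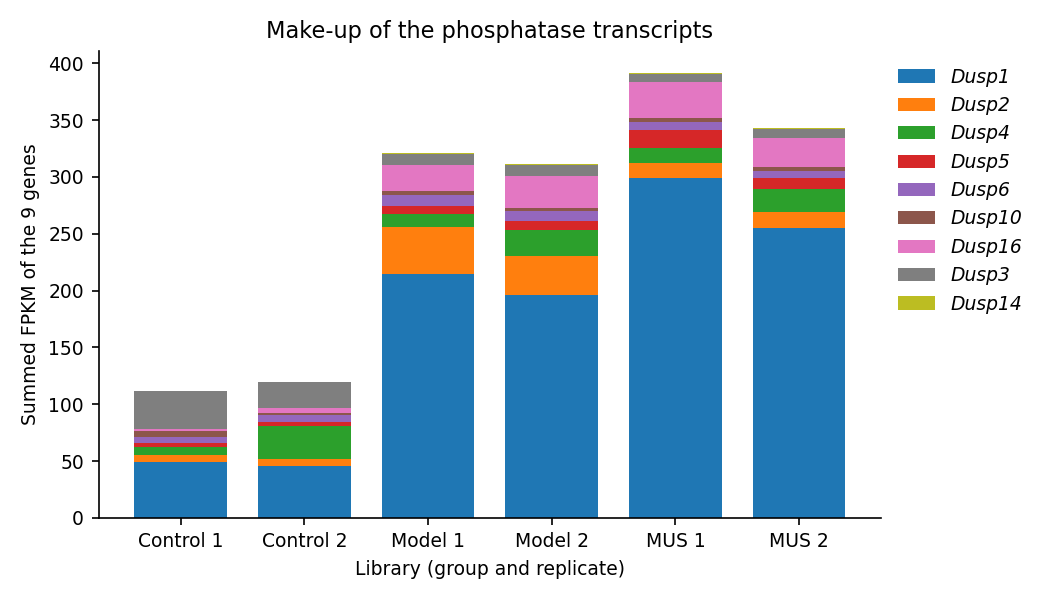
Summed FPKM of the 9 genes in each library as stacked bars, each segment 1 gene. On the deposited scale, the total was 112 and 119 in Control libraries, 321 and 311 in Model libraries, and 391 and 343 in MUS libraries, with Dusp1 the largest segment of every bar.

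Ratios within a library, which are likewise free of its scale, were taken between pairs of members. The ratio of Dusp1 to Dusp2 was 8.09 and 7.17 in Control libraries, 5.11 and 5.74 in Model libraries, and 23.2 and 17.9 in MUS libraries. Both Control libraries lay above both Model libraries, and both MUS libraries lay above all 4 others. The members were chosen with their values known, and how often other gene pairs separate in this way was not counted. The ratio of Dusp2 to Dusp5 was 1.61 and 1.60 in Control libraries, 5.61 and 4.39 in Model libraries, and 0.815 and 1.42 in MUS libraries. Model was highest, and Dusp5 exceeded Dusp2 in 1 library, MUS replicate 1. The ratio of Dusp1 to Dusp3 was 1.48 and 2.06 in Control libraries, 22.5 and 19.8 in Model libraries, and 42.6 and 31.0 in MUS libraries. Over the 6 libraries, which form 3 groups of 2, log2(FPKM + 1) of Dusp1 had a Pearson r of 0.962 with Dusp16 and 0.930 with Dusp5, Dusp2 had 0.915 with Dusp6, Dusp16 had -0.990 with Dusp3, and Dusp4 had -0.934 with Dusp10. These correlations are descriptions of 6 points that share groups, batches and scales.

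**Figure D5:**
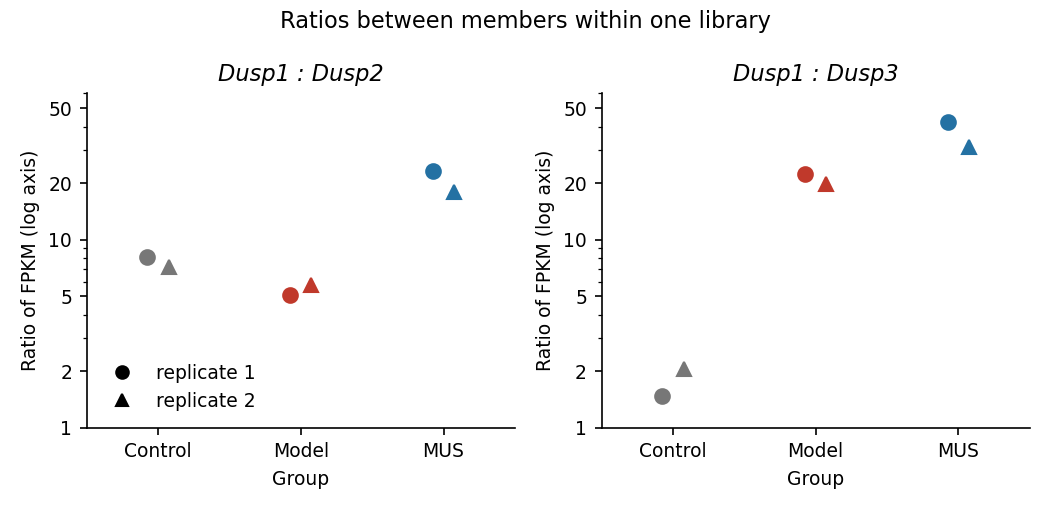
Ratios of FPKM between pairs of members within each library on a log axis, by group, with 1 point per library. Dusp1 to Dusp2 was 23.2 and 17.9 in MUS and 5.11 to 8.09 in the other 4 libraries.

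Over all 9794 genes tested, those whose levels followed a member most closely across the 6 libraries were listed by Pearson r, as a description. The number of genes with an r over 0.95 was 49 for Dusp2, 538 for Dusp1, 533 for Dusp3 and 812 for Dusp16. Closest to Dusp2 were Nudt13 (r = 0.998), Socs1 (r = 0.993) and Relch (r = 0.993). Socs1, which encodes an inhibitor of cytokine receptor signalling through JAK kinases, was at 0.421 and 1.05 FPKM in Control libraries, 12.0 and 9.90 in Model libraries, and 2.46 and 3.13 in MUS libraries. Nudt13, a mitochondrial NUDIX hydrolase gene, was at 2.35 and 2.42 FPKM in Control libraries, 5.23 and 4.64 in Model libraries, and 3.17 and 3.18 in MUS libraries. Like Dusp2, both genes had MUS between the other groups and apart from them, which follows from picking them by their r with Dusp2. Dusp1 was closest to Bfar (r = 0.999), Rab5a (r = 0.998) and Tmcc3 (r = 0.998), Dusp16 to Dcp2, Gbp6 and Ankib1, and Dusp3 to Amz1, Tcf3 and Cebpa, with Cebpa at 152 and 68.4 FPKM in Control and 4.54 to 11.4 in the other libraries. Dusp5 was closest to Stag2, Alkbh3 and Mthfsl, with 137 genes over 0.95, and Dusp6 to Fam222b, Mir17hg and Cenpl, with 15. Dusp4 (Tram2, Nsmf and Abcc4) and Dusp10 (Snx1, Ift172 and Lpxn) had 6 and 14 such genes.

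The pathway around the phosphatases was followed in lists of 83 further genes, of which 56 passed the filter. In Model vs. Control 16 of the 56 were DEGs (11 up and 5 down, beside 15.1% of all genes), with a median log2 fold change of 0.02 against 0.04 for all genes. With fragments scaled to equal totals, 12 rather than 11 MAP3 kinases passed the filter and the split was 7 up and 12 down. Of all 10066 genes tested under that scaling, 647 were up and 1633 down. Of the 3 other typical MAP kinase phosphatases, Dusp7, an ERK phosphatase, passed the filter and was at 6.76 and 7.40 FPKM in Control libraries, 6.65 and 7.89 in Model libraries, and 4.02 and 4.16 in MUS libraries. Its groups overlapped in Model vs. Control (log2 fold change 0.03, adjusted p = 0.930, limma), and in MUS vs. Model both MUS libraries were lower (-0.70, adjusted p = 0.463, limma). Dusp8 (0.392 to 1.03 FPKM) and Dusp9 (0.0243 to 1.25 FPKM) lay below the filter. Of 12 other atypical phosphatases 5 were tested and 1 was a DEG, Dusp28, at 2.63 and 2.43 FPKM in Control libraries, 10.5 and 9.04 in Model libraries, and 4.23 and 5.62 in MUS libraries. Dusp28 rose in Model vs. Control (log2 fold change 1.61 ± 0.22, adjusted p = 0.00557, limma) and, like Dusp2, had both MUS libraries between the other groups, with a log2 fold change of -0.87 against Model that did not pass (adjusted p = 0.382, limma).

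Of the MAP kinases that the phosphatases act on, 0 of 6 tested were DEGs. The log2 fold changes in Model vs. Control were -1.04 for Mapk3, which encodes ERK1 and was a DEG (-1.58) with fragments scaled to equal totals, 0.38 for Mapk8 and 0.31 for Mapk9, which encode JNK1 and JNK2, and -0.07 for Mapk14, which encodes p38α, with adjusted p from 0.140 to 0.885 (limma). Among the kinases directly above them, 3 of 6 rose and 0 fell. Map2k1, the ERK kinase MEK1, was at 24.6 and 36.3 FPKM in Control libraries, 201 and 154 in Model libraries, and 174 and 159 in MUS libraries (log2 fold change in Model vs. Control 2.52 ± 0.33, adjusted p = 0.00499, limma). Map2k3, a p38 kinase, rose by 1.26 ± 0.30 and Map2k4, a JNK kinase, by 1.14 ± 0.25 on the log2 scale. Of 11 MAP3 kinases tested, 1 rose and 1 fell. The one that rose was Map3k8, or TPL2, which activates MEK downstream of Toll-like receptors, at 6.47 and 7.03 FPKM in Control libraries, 36.0 and 28.0 in Model libraries, and 25.8 and 18.9 in MUS libraries (2.08 ± 0.27, adjusted p = 0.00483, limma). Its log2 fold change in MUS vs. Model was -0.50 (adjusted p = 0.688, limma). The one that fell was Map3k3 (-1.28 ± 0.33).

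Below the MAP kinases, 3 of 8 activated kinases fell and 0 rose. Mknk2, which phosphorylates the cap-binding factor eIF4E, was at 40.5 and 14.6 FPKM in Control libraries, 1.35 and 3.22 in Model libraries, and 1.12 and 2.37 in MUS libraries (log2 fold change -3.02 ± 0.51, adjusted p = 0.0109, limma), beside its relative Mknk1 (-1.41 ± 0.25) and the ribosomal S6 kinase gene Rps6ka1 (-1.35 ± 0.24). Mapkapk2, the p38-activated kinase MK2, was at 70.2 and 248 FPKM in Control libraries, 491 and 322 in Model libraries, and 168 and 212 in MUS libraries, and passed in neither comparison (log2 fold change 1.58 against Control with adjusted p = 0.114, and -1.07 for MUS against Model with adjusted p = 0.70, limma). Of the other brakes, 2 of 7 rose and 0 fell. Spry2, an inhibitor of the ERK pathway, was at 1.80 and 2.05 FPKM in Control libraries, 8.22 and 5.54 in Model libraries, and 3.93 and 4.01 in MUS libraries (1.41 ± 0.23 in Model vs. Control, adjusted p = 0.0100, limma). Spred1, a related inhibitor, rose by 2.60 ± 0.68 on the log2 scale, with its Control libraries far apart at 8.45 and 45.9 FPKM. Of 12 immediate-early target genes, 4 rose (Ier3, 3.39 ± 0.35; Ier2, 3.16 ± 0.30; Fosl2, 2.35 ± 0.34; Egr1, 1.75 ± 0.41) and Jun, which encodes a subunit of AP-1, fell (-1.63 ± 0.34). Ier2 was at 15.1 and 18.6 FPKM in Control libraries, 183 and 136 in Model libraries, and 64.6 and 65.6 in MUS libraries, again with MUS between the other groups and apart from them. That order was found in 5 of the 11 upregulated pathway DEGs, beside 21.8% of all upregulated DEGs.

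Of these 16 pathway DEGs, Dusp28, Map2k1, Map3k8, Ier2 and Ier3 were DEGs under every alternative that was run, and Fosl2 under every one except the fit without a filter. Without Control replicate 1, 8 of the others (Map2k3, Map2k4, Map3k3, Rps6ka1, Mknk1, Spry2, Jun and Egr1) had adjusted p from 0.0508 to 0.181 (limma). Without Model replicate 1, 8 (Map2k3, Map2k4, Map3k3, Rps6ka1, Mknk1, Mknk2, Spred1 and Jun) had adjusted p from 0.0571 to 0.138 (limma). Without either MUS library, 6 (Map2k3, Map2k4, Map3k3, Spred1, Jun and Egr1) had adjusted p from 0.0581 to 0.0892 (limma). With fragments scaled to equal totals, Map2k3, Map2k4, Spred1 and Egr1 had adjusted p from 0.0517 to 0.0901 (limma), and 7 genes became downregulated DEGs, which were Mapk3 (-1.58), Map2k5 (-1.14), Map3k1 (-1.46), Map3k2 (-1.11), Ppm1d (-1.31), Fos (-1.68) and Myc (-1.12). By list, the counts were then 0 up and 1 down of 6 MAP kinases, 1 and 1 of 6 MAP2 kinases, 1 and 3 of 12 MAP3 kinases, 0 and 3 of 8 activated kinases, 1 and 1 of 7 other brakes, and 3 and 3 of 12 immediate-early genes. Beside these counts, 647 of all 10066 genes tested under that scaling were up and 1633 down. The genes gained under that scaling are named after their values were seen. Without Control replicate 2, Map3k3 and Egr1 did not pass (adjusted p 0.0606 and 0.0906, limma), and without Model replicate 2 Map2k4, Spred1 and Egr1 did not (adjusted p 0.0613 to 0.118, limma).

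In MUS vs. Model 0 of the 56 pathway genes passed, with 0.350 as their smallest adjusted p (limma). At an unadjusted p under 0.05 there were 8, 1 higher and 7 lower, beside 8.42% of all genes, with a median log2 fold change of -0.03 over the 56 against 0.01 over all genes, and voom gave 0 DEGs as well. The share of all genes in each direction was not counted at that p, so nothing is read from the split. The 7 lower were Jund (-1.78), Ier2 (-1.26), Junb (-1.02), Dusp28 (-0.87), Map3k11 (-0.84), Dusp7 (-0.70) and Spry2 (-0.64), and the 1 higher was Egr2 (0.92), with adjusted p from 0.350 to 0.513 (limma). Jund, Junb, Map3k11 and Egr2 are named after their values were seen, to complete this count.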

How the data were processed

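RNA-seq of mouse peritoneal macrophages was analysed from one table, in which the authors deposited the FPKM of each gene in each of the 6 libraries. The methods name RSEM for the FPKM, and the submitters' processing notes name HISAT2 and featureCounts 1.5.0-p3. The labels name build GRCm39, but 98.3% of the 54409 identifiers shared with GENCODE M21 had their GRCm38 position in the table, so positions are given on GRCm38. Fragments were recovered as FPKM times gene length times a per-library scale found from the values, and came out whole within a tolerance of 0.1, and 3 fragments on 1 kb correspond to 0.131 to 0.213 FPKM. The table had 0 columns without a sample.

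The 9 members, the pathway lists and the motifs were chosen with earlier results of these data known. Genes named are all members by role, every pathway gene that was a DEG, a few kinases and phosphatases chosen for their role, and the 3 genes most like each member. The result for 1 gene is not reported here. limma 3.58.1 in R 4.3.3 (lmFit, contrasts.fit, eBayes with trend, two-sided) was fitted on log2(FPKM + 1) for 9794 genes that averaged 1 FPKM or more, with 3 groups in one model (3 residual and 4.04 prior degrees of freedom) and Benjamini-Hochberg adjustment. The DESeq2 analysis of the authors was not repeated. The fit was tested on simulated data. Promoter sequences came from RefSeq, and figures were drawn with Matplotlib 3.10.9, pandas 2.3.3 and NumPy 2.4.6 under Python 3.11.15.

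Groups share replicate numbers, which the labels call a batch. The replicate 2 minus replicate 1 differences, correlated across 9794 genes, gave r = 0.119 between Control and Model, r = 0.136 between Model and MUS, and r = -0.0928 between MUS and Control. One alternative took the number as a block. Other alternatives were pseudocount 0.1, no filter, a filter of 5 FPKM, only the compared groups, scaling to fragment totals, median ratios or quantiles, voom, and each library left out.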

Additional observations from a re-analysis of the deposited data

How the results depend on the processing

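In Model vs. Control, 4 members and 16 pathway genes were DEGs. Without a filter on low values the counts were 2 members (Dusp1 and Dusp2) and 5 pathway genes, and with only the compared groups in the fit 3 (without Dusp3) and 10. Leaving out 1 library gave 3 to 4 members and 8 to 21 pathway genes, with 8 without Control replicate 1 or Model replicate 1, 10 without either MUS library and 21 without Control replicate 2. With the replicate number as a block (pairing by batch) the counts stayed at 4 and 16, and the block changed no other call of a member or pathway gene. Fragment-total scaling gave 19 pathway genes (7 up and 12 down), quantile normalization 15 (8 up and 7 down) and voom 24 (9 up and 15 down). Among all genes, the DEGs were 647 up and 1633 down with fragment-total scaling. They were 707 up and 715 down with quantile normalization, and 684 up and 2050 down with voom. In MUS vs. Model no member and no pathway gene was a DEG under any of the 15 alternatives.

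Of 238 alternative member fold changes, 222 moved by less than the replicate spread and 16 by more, and none of a DEG changed sign. Most of the 222 could not have moved by more. Another filter, the block or the compared groups alone left a fold change as it was. Leaving out a library cannot shift it beyond that spread. The 16 came from the pseudocount, the scalings and voom, all in Model vs. Control. In Model vs. Control, Dusp1 ranged from 1.30 to 2.15, Dusp2 from 1.94 to 2.59, Dusp16 from 2.27 to 3.28 and Dusp3 from -2.04 to -1.12. Dusp4 ranged from -0.77 to 1.05 and Dusp10 from -0.75 to 0.38. Dusp5 ranged from 0.37 to 0.96 and Dusp6 from 0.21 to 0.82, both lowest with fragment-total scaling. In MUS vs. Model, Dusp2 ranged from -1.56 to -1.27, Dusp1 from 0.32 to 0.55 and Dusp5 from 0.36 to 0.96.

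Over all genes, Model vs. Control gave 1475 DEGs, 260 without a filter, 797 with only the compared groups, 2280 with fragment-total scaling and 2734 with voom, and 692 without Model replicate 1, 763 without Control replicate 1, 800 without MUS replicate 1 and 797 without MUS replicate 2. MUS vs. Model gave 0, but 7 with only the compared groups, 4 with the block, 1 with a pseudocount of 0.1, 5 without either Control library and 31 without Model replicate 2. The cause of these differences was not tested. Depth limits Dusp14, at 6 to 25 fragments.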
